A study of Mus musculus with 9 samples.

Results

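The expression of 10 genes of the transforming growth factor beta (TGF-beta) pathway was compared in mouse CD8+ T cells with and without the genes for ketone body use. These are the ligand gene Tgfb1, the receptor genes Tgfbr1, Tgfbr2 and Tgfbr3, the SMAD genes Smad2, Smad3, Smad4 and Smad7, and the co-repressor genes Ski and Skil. The genes were chosen by name, 10 of the 55471 identifiers in the count files, and all 10 passed the filter on low counts that left 14918 genes for testing. The cells carry OT-I, a transgenic T cell receptor for an ovalbumin peptide. They were activated in culture, given a short hairpin RNA (shRNA) together with the Ametrine reporter, and transferred into CD45.1 C57BL/6 mice that were then infected with LmOVA, Listeria monocytogenes expressing ovalbumin. Both groups share these steps, and both were recovered by sorting for CD45.2 and Ametrine on day 7 after infection. Control cells (4 libraries, Bdh1-WT;shCtrl) had an intact Bdh1 gene and an shRNA against firefly luciferase. DKO cells (5 libraries, Bdh1-KO;shOxct1) carried a Bdh1 knockout and an shRNA against Oxct1, so the Oxct1 part of the model is a knockdown in transduced cells. The age of the animals, and whether replicates are separate donors or hosts, are not given in the labels, so the p-values here measure only the spread between these libraries.

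TGF-beta is made as a latent protein that must be released before it binds. The released ligand brings together the type II receptor (Tgfbr2) and the type I receptor (Tgfbr1), and the type III receptor betaglycan (Tgfbr3) presents ligand to them. The active type I receptor phosphorylates SMAD2 and SMAD3, which join SMAD4 and enter the nucleus, while SMAD7 blocks the receptor and SKI and SnoN (encoded by Skil) recruit co-repressors to the SMADs. In CD8+ T cells the pathway is known for restraining effector differentiation and for inducing the tissue-residence integrin CD103, encoded by Itgae.

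Library totals ranged from 45205993 to 59853080 counts in genes. Oxct1 fell to 5.16 ± 0.370 CPM (counts scaled by TMM library size, SD, n = 5) in DKO from 63.2 ± 5.73 CPM (SD, n = 4) in Control, and Bdh1 fell to 10.6 ± 1.24 from 30.5 ± 4.17 CPM, so both targeted genes were lower in the libraries labelled DKO. All 10 markers of CD8+ T cells exceeded 1 CPM, and their sum ran from 9743 to 12963 CPM in Control and from 9574 to 10247 CPM in DKO. Control replicate 1 stood apart from the other 8 libraries. On the first principal component of log2 CPM it lay at -79.1, against -7.25 to 23.5 for the others, and on the second Control replicate 3 was at -70.2, against -5.59 to 20.2. The 10 genes are therefore given with and without Control replicate 1.

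Of the 10 genes, 1 passed an adjusted p of 0.05 by the quasi-likelihood test of edgeR: Tgfb1, which rose in DKO. Over all genes tested, 2.83% passed in either direction and 1.32% passed as higher in DKO. Of the 9 other genes, Tgfbr1, Smad3, Smad4 and Smad7 had fold changes above 0 and Tgfbr2, Tgfbr3, Smad2, Ski and Skil below 0, none past the threshold. Over the 10 genes the median log2 fold change was 0.00, against -0.01 over all genes tested. At an unadjusted p of 0.05, 1 of the 10 genes passed in edgeR, where 16% of all genes tested did. DESeq2's Wald test (8.41% of all genes called) and limma-voom (6.68%) each called Tgfb1 alone of the 10. Without Control replicate 1, Tgfb1 was again the 1 gene called, where 4.93% of all genes were called. The number with an unadjusted p under 0.05 was then 4: Tgfb1, Tgfbr2, Tgfbr3 and Skil.

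Tgfb1 (ENSMUSG00000002603.15, protein coding, GRCm38 chromosome 7, bases 25687002 to 25705077, plus strand) encodes TGF-beta 1, the form of the ligand that T cells themselves make. The 4 Control libraries held 80.7, 97.3, 96.5 and 96.2 CPM, and the 5 DKO libraries held 118, 116, 119.9, 118 and 112 CPM. Every DKO library lay above every Control library, which was so for 1 of the 10 genes in either direction and for 8.71% of all genes tested. The mean rose from 92.7 ± 7.97 CPM (SD, n = 4) to 117 ± 3.07 CPM (SD, n = 5). The log2 fold change was 0.34 (SE 0.08), an increase of 26.2% (adjusted p 0.0447 in edgeR, Benjamini-Hochberg over all genes tested). Control replicate 1 was the low Control library, and the other 3 Control libraries had an SD of 0.572 CPM. Without it the log2 fold change was smaller, 0.26 (SE 0.05), with an adjusted p of 0.0158 in edgeR. Without any 1 of the other 8 libraries Tgfb1 kept its direction but not its call, with a log2 fold change of 0.33 to 0.36 and an adjusted p of 0.0621 to 0.127.

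Summed markers of other cells and of cell division were set beside these values, and none of the 7 lists passed an adjusted p of 0.05. The sum of 20 cell cycle genes was 993 ± 68.2 CPM in Control, with a range of 898 to 1044 CPM, and 1444 ± 275 CPM in DKO, with a range of 1179 to 1908 CPM. The sum of 14 myeloid genes, of which 8 exceeded 1 CPM, ran from 164 to 199 CPM in Control and from 116 to 128 CPM in DKO, so every DKO library was below every Control library. The sum rested on Ctss (81.2 and 51.3 CPM in Control and DKO), Itgam (58.9 and 38.1 CPM) and Cd68 (29.2 and 16.8 CPM). The other genes of the list were low, and their means lay in both directions. Higher in DKO were Lyz2 at 2.43 and 5.85 CPM, Csf1r at 1.84 and 2.37 CPM, Spi1 at 0.420 and 0.629 CPM and Mpeg1 at 0.154 and 0.351 CPM. C1qa, S100a8 and S100a9 were also higher. Lower in DKO were Fcer1g at 1.74 and 1.63 CPM and Cybb at 0.428 and 0.274 CPM, besides Cd14 and Adgre1. The defining myeloid genes Cd14 (0.359 and 0.334 CPM) and Adgre1 (1.04 and 1.01 CPM) were near or below 1 CPM in Control and DKO. For the cell cycle and myeloid lists the exact permutation test (two-sided) gave p = 0.0159, the smallest that 4 against 5 libraries allow. The adjusted p was 0.0556 over 7 lists. Beside the p-values of the other lists, these 2 could not have passed 0.05 however far apart their groups lay. Platelets are rich in TGF-beta 1, and the erythroid and platelet list, with 6 of 9 genes above 1 CPM, summed to 10.9 to 36.3 CPM in Control, against 16.9 to 55.9 CPM in DKO (exact permutation p = 0.540). That sum joins genes whose means lay in opposite directions. All 4 platelet genes had higher means in DKO, with Ppbp at 7.25 and 12.4 CPM in Control and DKO, Itga2b at 6.79 and 11.1 CPM, Pf4 at 2.77 and 3.73 CPM and Gp9 at 0.884 and 1.34 CPM. All 5 erythroid genes had lower means in DKO, led by Hbb-bs at 6.48 and 2.90 CPM. The platelet genes were not tested apart from the list. The B cell list (3 of 10 genes above 1 CPM, Pax5 at 0 counts) summed to 187 to 271 CPM in Control, against 195 to 216 CPM in DKO. The CD4 T cell list (2 of 4 genes above 1 CPM) summed to 30.7 to 39.3 and 34.6 to 46.6 CPM, and the NK cell list (3 of 5 genes above 1 CPM, Eomes among them and Ncr1 at 0.0707 and 0.0618 CPM) to 121 to 173 and 96.9 to 129 CPM. The part of these genes in the change of Tgfb1 was not tested. In RNA from sorted cell pools, more cells with a transcript and more transcript per cell cannot be told apart.

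The sequence before the start of Tgfb1 is shown because Tgfb1 was the gene that passed the test. It is the 250 bases at chr7:25686752-25687001 on the plus strand (RefSeq, GRCm38.p6), 5′ to 3′, with the Sp1 word GGGCGG, or CCGCCC for the other strand, in capitals.
Tgfb1: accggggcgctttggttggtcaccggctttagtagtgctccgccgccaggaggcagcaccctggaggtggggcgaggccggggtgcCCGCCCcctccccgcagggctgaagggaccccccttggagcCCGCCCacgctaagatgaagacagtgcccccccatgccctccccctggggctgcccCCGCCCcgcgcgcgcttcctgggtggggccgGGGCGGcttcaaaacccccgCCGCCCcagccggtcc
In the window of 300 bases that also takes in the first 50 transcribed bases, Tgfb1 held 6 of these words, of which 5 lie in the stretch printed. In such windows, 35.7% of 32851 RefSeq promoters held at least 1 and 1.35% held 6 or more. The printed stretch was 75.2% G or C, against a median of 52.4% over all promoter windows. The SMAD words GTCTAGAC, CAGACA and GGCGCC (both strands) and the AP-1 word TGANTCA (both strands) were not among the letters of the Tgfb1 window. The RefSeq table held windows for 5 of the 10 genes, with 2 starts for Tgfbr1.

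Among the windows of the receptors and co-repressors, SMAD words were found in those of Tgfbr1 and Ski. They are shown to give the letters behind this count, in 30 bases each, 5′ to 3′ on the gene's strand, with the word in capitals.
Tgfbr1, chr4:47352977-47353006, word 233 bases before the first start: ggctggagtaaaGGCGCCcagcggtgaggg
Tgfbr1, chr4:47386001-47386030, word 203 bases before the second start: tttcgaactcagCAGACAgccccacggtcc
Ski, chr4:155222738-155222767, minus strand, word 220 bases before the start: gcgcgtggatgtGGCGCCgggcccgggcgg
GGCGCC was in 11.9% and CAGACA in 21% of all promoter windows, and GTCTAGAC, in 0.213% of them, was in none of the 6 windows here. The Ski window held 6 Sp1 words, as many as that of Tgfb1, while those of Smad3 and of the first Tgfbr1 start held 2 each. These are matches of letters and were not tested as binding sites.

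**Figure D1:**
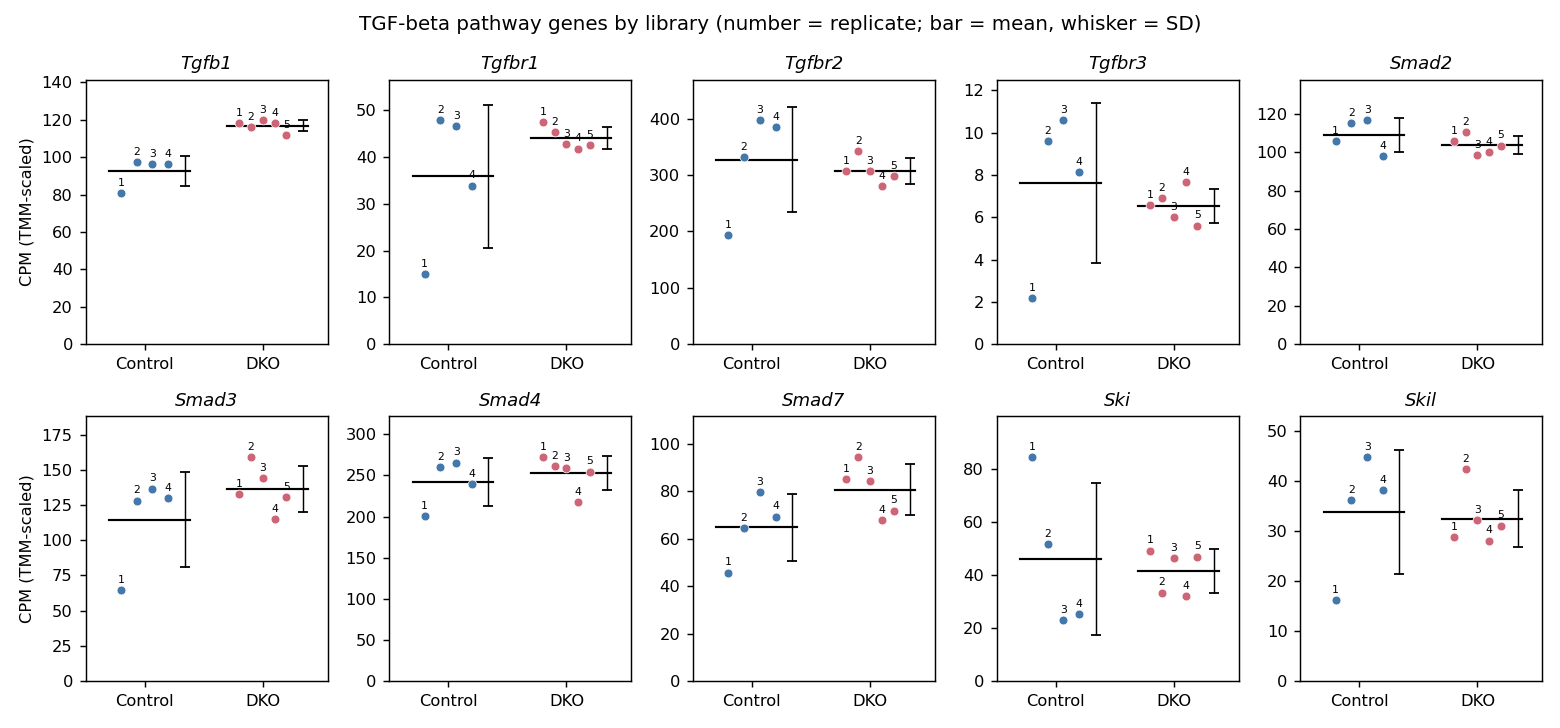
Expression of each gene in every library, in CPM (TMM-scaled, linear axis from 0). Points are libraries, numbered by replicate, with 4 Control in blue and 5 DKO in red; bars are group means and whiskers are SD. Tgfb1 shows no overlap between the groups, and Control replicate 1 is the lowest library for Tgfb1, Tgfbr1, Tgfbr2, Tgfbr3, Smad3, Smad4, Smad7 and Skil and the highest for Ski.

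The receptor genes were next. Tgfbr2 (ENSMUSG00000032440.13, minus strand of chromosome 9, 116084293 to 116175360) encodes the receptor that binds the ligand first. Its Control libraries held 194, 331.5, 397 and 385 CPM, and its DKO libraries 306, 343, 307, 279.9 and 299 CPM. Control replicate 1 lay below all DKO libraries, and Control replicates 3 and 4 lay above all of them. With all libraries the log2 fold change was -0.09 (SE 0.17 and adjusted p 0.839 in edgeR). Without Control replicate 1 the Control mean was 371 ± 35.1 CPM (SD, n = 3) against 307 ± 22.8 CPM in DKO (SD, n = 5), and the log2 fold change was -0.29 (SE 0.08 and adjusted p 0.0536 in edgeR). That value is just outside the threshold, and Control replicate 2 still lay below DKO replicate 2.

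Tgfbr3 (ENSMUSG00000029287.14, minus strand of chromosome 5, 107106570 to 107289629) encodes betaglycan, which presents ligand to the signalling receptors. Its Control libraries held 2.17, 9.58, 10.6 and 8.13 CPM, and its DKO libraries 6.56, 6.91, 6.01, 7.68 and 5.61 CPM. Control replicate 1, with 105 counts, was far below every other library, while the other 3 Control libraries all lay above the 5 DKO libraries. The log2 fold change was -0.22 (SE 0.34 and adjusted p 0.802 in edgeR) with all libraries. It was -0.54 (SE 0.14 and adjusted p 0.0554 in edgeR) without Control replicate 1, where the Control mean was 9.44 ± 1.24 CPM (SD, n = 3) and the DKO mean 6.55 ± 0.803 CPM (SD, n = 5). In those 8 libraries the groups of 2 of the 10 genes did not overlap, Tgfb1 as higher and Tgfbr3 as lower in DKO, and those of 14.3% of all genes tested did not.

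Tgfbr1 (ENSMUSG00000007613.15, plus strand of chromosome 4, 47353222 to 47414931) encodes the kinase that phosphorylates SMAD2 and SMAD3. Its Control libraries held 15, 47.9, 46.5 and 33.9 CPM, against 47.4, 45.4, 42.8, 41.8 and 42.6 CPM in DKO. The DKO libraries lay inside the range of the Control libraries. The log2 fold change of 0.30 (SE 0.26 and adjusted p 0.628 in edgeR) came to 0.03 (SE 0.11 and adjusted p 0.924 in edgeR) without Control replicate 1. Other Control libraries bore on the receptors as well. Without Control replicate 3 the log2 fold change was 0.017 for Tgfbr2 and -0.018 for Tgfbr3, and without Control replicates 1 and 3 together it was -0.24 and -0.45, each with an adjusted p of 0.166 in edgeR.

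The receptor-activated SMAD genes gave no call. Smad3 (ENSMUSG00000032402.12, minus strand of chromosome 9, 63646767 to 63757994) encodes a SMAD that binds DNA directly. It was at 64.2, 128, 137 and 129.6 CPM in Control and at 133, 159, 144, 115 and 130.3 CPM in DKO. Apart from Control replicate 1 the groups overlapped. Its log2 fold change was 0.25 (SE 0.19 and adjusted p 0.568 in edgeR) with all libraries and 0.04 (SE 0.09 and adjusted p 0.863 in edgeR) without that library.

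Smad2 (ENSMUSG00000024563.16, plus strand of chromosome 18, 76241580 to 76310963) encodes the other receptor-activated SMAD. It ran from 98.1 to 117 CPM in Control and from 98.6 to 111 CPM in DKO, so the groups lay over the same range. Its log2 fold change was -0.07 (SE 0.08 and adjusted p 0.71 in edgeR), and -0.10 (adjusted p 0.483) without Control replicate 1. Smad4 (ENSMUSG00000024515.13, minus strand of chromosome 18, 73639009 to 73703780) encodes the partner that both need. It ran from 201 to 266 CPM in Control and from 217 to 273 CPM in DKO. Its log2 fold change was 0.07 (SE 0.10 and adjusted p 0.786 in edgeR), and -0.02 (adjusted p 0.908) without Control replicate 1. Smad2 and Smad4 had, with Tgfb1, the smallest standard errors of the 10 genes.

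Smad7 (ENSMUSG00000025880.11, plus strand of chromosome 18, 75367529 to 75395935) encodes the inhibitory SMAD and is itself induced by TGF-beta. It was at 45.7, 64.4, 79.5 and 69.3 CPM in Control and at 85.0, 94.6, 84.2, 67.8 and 71.9 CPM in DKO. DKO replicates 1, 2 and 3 lay above all Control libraries, and DKO replicates 4 and 5 lay below Control replicate 3. The log2 fold change was 0.32 (SE 0.15, unadjusted p 0.0600, adjusted p 0.341, edgeR's quasi-likelihood test), and 0.17 (SE 0.11 and adjusted p 0.435) without Control replicate 1.

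The co-repressor genes gave no call either, and Control replicate 1 lay at opposite ends for them. Ski (ENSMUSG00000029050.15, minus strand of chromosome 4, 155154075 to 155222592) was at 84.7, 51.6, 22.9 and 25.1 CPM in Control and at 49.2, 33.4, 46.5, 32.0 and 46.9 CPM in DKO. All DKO libraries lay between the 2 higher and the 2 lower Control libraries. Its log2 fold change was -0.15 (SE 0.34 and adjusted p 0.869 in edgeR) with all libraries and 0.31 (SE 0.25 and adjusted p 0.551 in edgeR) without Control replicate 1, so its direction turned on that library. Skil (ENSMUSG00000027660.16, plus strand of chromosome 3, 31095058 to 31122577), which encodes SnoN, was at 16.2, 36.3, 44.9 and 38.2 CPM in Control and at 28.8, 42.4, 32.2, 28.1 and 31.1 CPM in DKO. Control replicate 1 was again the lowest library. The log2 fold change of Skil was -0.06 (SE 0.24 and adjusted p 0.931 in edgeR) with all libraries and -0.30 (SE 0.13 and adjusted p 0.224 in edgeR) without it.

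**Figure D2:**
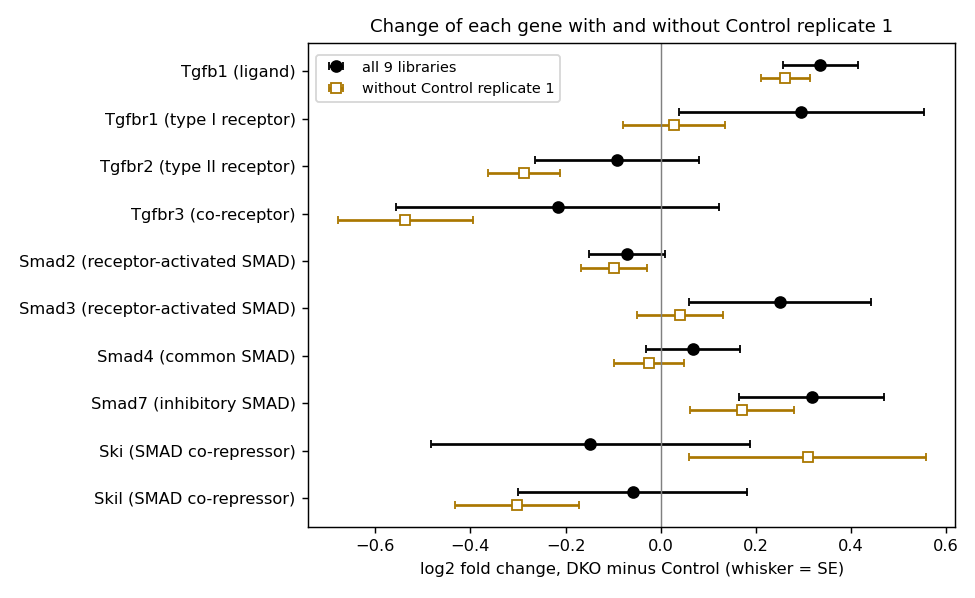
Log2 fold change of each gene, DKO minus Control, in edgeR with all 9 libraries (filled circles) and without Control replicate 1 (open squares); whiskers are SE and the vertical line marks no change. Tgfb1 stays above 0 in both (0.34 and 0.26), Tgfbr2 and Tgfbr3 lie further below 0 without that library (-0.29 and -0.54), and Ski (-0.15 and 0.31) and Smad4 (0.07 and -0.02) change side.

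The deviation of Control replicate 1 was not the same for all genes. Against the mean log2 CPM of the other 3 Control libraries it was lower for 9 of the 10, where it was lower for 49.1% of all genes tested. It was lower by more than 0.5 on the log2 scale for 6 of the 10 and for 22.6% of all genes. The largest deviations were -2.09 for Tgfbr3, -1.49 for Tgfbr1, -1.29 for Skil and -1.03 for Smad3, while Ski was 1.45 higher. Over all genes tested the deviation went with exon length: its median was 0.49 for 1982 genes under 1 kb and -0.41 for 2734 genes over 7 kb. Control replicate 3, against the other 3 Control libraries, had the opposite trend, with medians of -0.14 and 0.22 in those bins. It was 0.93 higher for Tgfbr3, 0.68 for Tgfbr1 and 0.67 for Skil, and its value for Ski was -1.06. That reference includes Control replicate 1, so part of this trend and of these values comes from Control replicate 1 itself. Tgfbr3 was at 10.6 CPM in Control replicate 3, against 9.58 and 8.13 CPM in Control replicates 2 and 4. In the same order, Tgfbr1 was at 46.5, 47.9 and 33.9 CPM and Skil at 44.9, 36.3 and 38.2 CPM. Ski was at 22.9, 51.6 and 25.1 CPM. Control replicate 3 also lay apart on the second principal component, and the values without Control replicate 1 rest partly on it. The 10 genes have between 3712 (Smad4) and 9694 (Skil) bases of exon. In the bin of 5 to 7 kb, which holds Tgfb1, Tgfbr1, Tgfbr3, Smad3 and Ski, the median was -0.26, and the value of Tgfb1 was also -0.26. Control replicate 1 also had the highest share of unmapped reads, 16.7% against 10.3 to 12.3% in the other libraries. The part of length or of unmapped reads in the values of these genes was not tested.

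**Figure D3:**
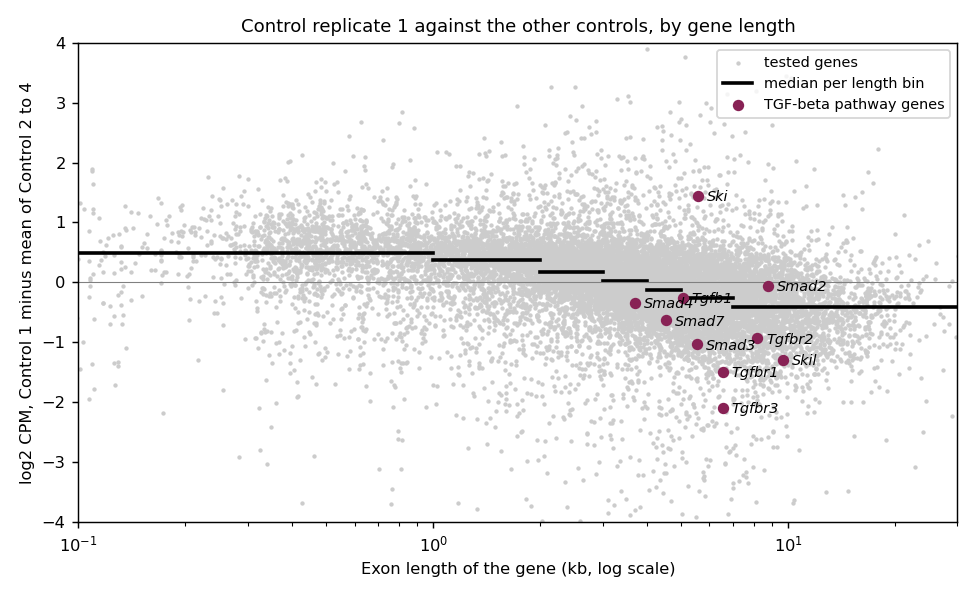
Log2 CPM in Control replicate 1 minus the mean of Control replicates 2 to 4 (vertical axis, cut at -4 and 4) against the exon length of each gene in kb (log scale). Grey points are tested genes, black lines are medians per length bin, and purple points are the 10 TGF-beta pathway genes, of which 9 lie below 0 and Ski lies at 1.45.

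Levels were compared between genes per length of exon, as TPM, counts per exon length scaled to the same total in each library. In DKO, Smad4 had the highest level at 222 ± 21.9 TPM (SD, n = 5), followed by Tgfbr2 at 122 TPM, with a range of 108 to 136 TPM. Smad3 at 80.2 ± 10.4 TPM and Tgfb1 at 75.6 ± 2.86 TPM came next and overlapped between libraries. Smad7 was at 58.2 ± 8.41 TPM and Smad2 at 38.4 ± 1.91 TPM. Ski at 24.4 ± 5.16 TPM and Tgfbr1 at 21.9 ± 1.42 TPM overlapped as well. Skil at 10.9 ± 1.95 TPM and Tgfbr3 at 3.26 ± 0.359 TPM were the lowest, so the type II receptor stood well above the type I receptor and both above betaglycan. The order of the means was the same in Control, from Smad4 at 207 ± 35.4 TPM (SD, n = 4) to Tgfbr3 at 3.77 ± 1.95 TPM, but there every gene overlapped its neighbour in the order. Without Control replicate 1, Ski and Tgfbr1 changed places in Control, and the neighbours that overlapped were Tgfbr1 with Ski and Ski with Skil.

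By the root-mean-square difference of centred log2 CPM over the 9 libraries, the 3 genes with the pattern most like Tgfb1 were Abcg1, Hgs and Pygo2. Their differences from Tgfb1 were 0.0492, 0.0537 and 0.0539, against a median of 0.320 over all genes. Abcg1, a cholesterol exporter, was at 45.6 ± 4.11 CPM in Control, against 56.3 ± 2.74 CPM in DKO (adjusted p 0.0963, edgeR). Hgs, which sorts receptors on endosomes, was at 92.6 ± 10.2 and 113.7 ± 4.67 CPM (adjusted p 0.108, edgeR). Pygo2, a chromatin factor of Wnt signalling, was at 95.2 ± 9.17 and 124.9 ± 7.09 CPM (adjusted p 0.0363, edgeR). The call of Pygo2 was lost in 9 of 18 alternatives, with an adjusted p of up to 0.109 without 1 library. These 3 genes were picked for a pattern like that of Tgfb1, which includes its rise in DKO. Their higher means in DKO and their p-values therefore follow from that choice and are not separate results.

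Around these 10 genes, 100 other genes of the pathway and its targets were listed, of which 82 were tested. Of the 82, 6 passed the threshold (7.32%), 2 higher and 4 lower in DKO, where 2.83% of all genes did, 1.32% as higher and 1.51% as lower. Their median log2 fold change was 0.07 against -0.01 over all genes. Without Control replicate 1, 10 of the 82 passed, 4 higher and 6 lower, where 2.12% and 2.81% of all genes did: the same 6 genes and Runx3, Id3, Prf1 and Cx3cr1. The lists were chosen with earlier results of these data known, so these shares cannot show that the pathway was enriched for changed genes.

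**Figure D4:**
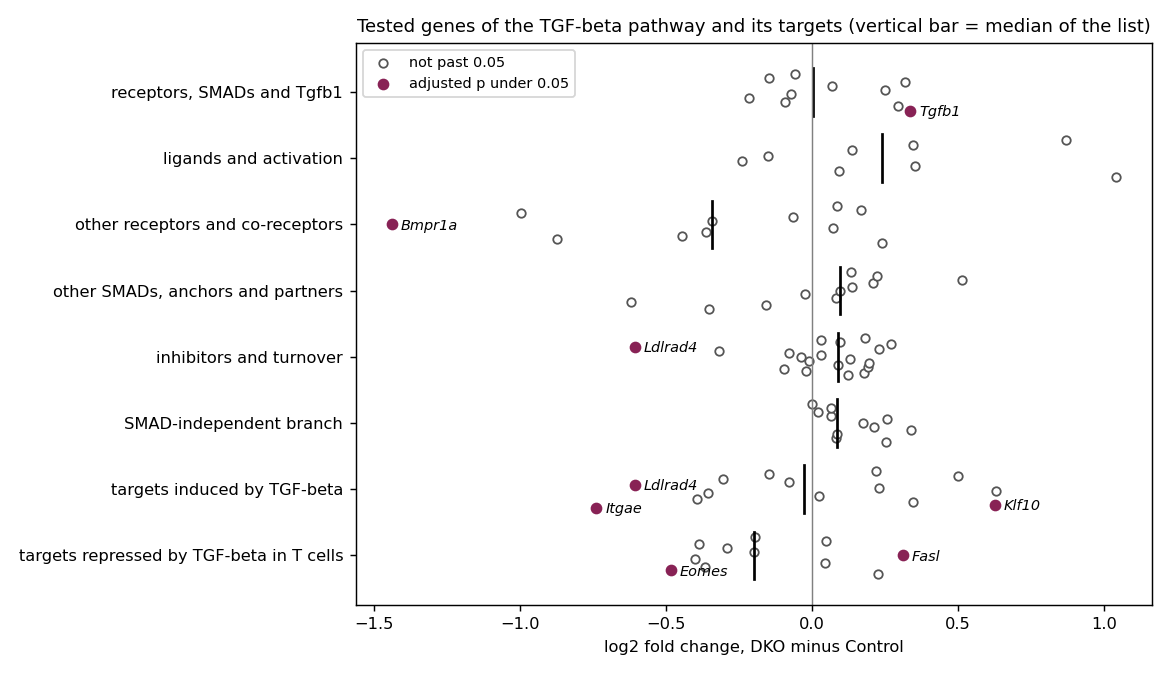
Log2 fold change, DKO minus Control, of the 10 genes (top lane) and of the tested genes of each other list (lower lanes). Each point is a gene, filled and named where the adjusted p in edgeR was under 0.05, and vertical bars are list medians. The called genes lie on both sides of 0, from Bmpr1a at -1.44 to Klf10 at 0.63.

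Of the other ligands and genes of ligand activation, 8 of 18 were tested and none passed in edgeR. At an unadjusted p under 0.05, 1 passed, where 16% of all genes tested did. It was Itgav, the alpha chain of integrins that release latent TGF-beta. Itgav was at 43.4 CPM in Control, against 55.2 CPM in DKO (adjusted p 0.278, edgeR). The highest fold change of the list was that of Tgfb3 (1.04, SE 0.72) and the lowest that of Ltbp1 (-0.24, SE 0.59), with adjusted p of 0.525 and 0.881 in edgeR, and Ltbp1 turned to 0.51 without Control replicate 3. Ltbp1, a latent TGF-beta binding protein gene, was at 1.02 and 0.860 CPM in Control and DKO. Tgfb3, which encodes a related ligand, was at 0.335 and 0.702 CPM, and Tgfb2 was below the count filter.

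Of the other receptor genes, 11 of 12 were tested, and Bmpr1a passed as lower, as did 1.51% of all genes tested. At an unadjusted p under 0.05, 3 of the 11 passed in edgeR, where 16% of all genes tested did. Besides Bmpr1a they were Acvr1b, at 1.11 and 0.604 CPM in Control and DKO, and Bambi, at 1.36 and 0.680 CPM. Their log2 fold changes were -0.87 and -0.995, with adjusted p of 0.213 and 0.270 in edgeR. Bmpr1a (ENSMUSG00000021796.15, minus strand of chromosome 14, 34410734 to 34503341) encodes a type I receptor for bone morphogenetic proteins. It fell from 3.01, 3.35, 2.77 and 2.94 CPM in the Control libraries to 1.29, 1.47, 0.946, 0.916 and 0.931 CPM in the DKO libraries. All DKO libraries lay well below all Control libraries, on counts of 44 to 191, where the groups of 8.71% of all genes tested did not overlap. The log2 fold change was -1.44 (SE 0.20 and adjusted p 0.00463 in edgeR), and the call held without each library in turn, with an adjusted p of at most 0.0192. The list's median was -0.34. Its largest value above 0 was that of Acvr1, at 0.24 (SE 0.49 and adjusted p 0.853 in edgeR), which was -0.09 without Control replicate 1, with a mean under 1 CPM in both groups.

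Of the other SMADs, anchors and partners, 11 of 15 were tested and none passed in edgeR. At an unadjusted p under 0.05, 2 passed, Smad1 and Runx3, where 16% of all genes tested did. Runx3 had an adjusted p of 0.0523 in DESeq2 and of 0.0193 in limma-voom. Runx3, a transcription factor of CD8+ T cells that works with SMADs, had the largest value of the list, at 194 ± 53.4 CPM in Control, against 277 ± 9.68 CPM in DKO (log2 fold change 0.51, SE 0.17 and adjusted p 0.147 in edgeR). Its Control libraries did not overlap with DKO, as was so for 8.71% of all genes tested. Without Control replicate 1, at 114 CPM against 216 to 223 CPM in the other Control libraries, its log2 fold change was 0.31 (SE 0.05 and adjusted p 0.00627 in edgeR). Zfyve9, which encodes the SMAD anchor SARA, had the lowest value, -0.62 (SE 0.32 and adjusted p 0.376 in edgeR).

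Of the inhibitors and turnover genes, 19 of 20 were tested and Ldlrad4, which encodes an inhibitor that competes for SMAD2 and SMAD3, passed as lower. It was at 7.20 ± 0.314 CPM in Control, against 4.73 ± 0.654 CPM in DKO (log2 fold change -0.61, SE 0.14 and adjusted p 0.0415 in edgeR). Its strand columns summed to 2.3 times its unstranded count, so reads it shares with genes on the other strand bear on its count and its value is uncertain. With the strand columns summed, its log2 fold change was -0.37 with an adjusted p of 0.101. At an unadjusted p under 0.05, 2 of the 19 passed in edgeR, where 16% of all genes tested did. These were Ldlrad4 and Hdac1 (log2 fold change 0.18, adjusted p 0.245 in edgeR). The largest value above 0 was that of Pdpk1 (0.27, SE 0.16 and adjusted p 0.439 in edgeR). Of the SMAD-independent branch, 11 of 11 genes were tested, and none passed in edgeR. At an unadjusted p under 0.05, 2 passed, where 16% of all genes tested did. They were Map2k3 and Mapk14, both of the p38 kinase pathway. All 11 had a fold change above 0, and 9 of 11 without Control replicate 1, from Pard6a (0.00, SE 0.14, below 0 in 7 alternatives) to Traf6 (0.34, SE 0.17 and adjusted p 0.362 in edgeR). The list's median was small, 0.09 with all libraries, against -0.01 over all genes tested.

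Among targets listed as induced by TGF-beta, 3 genes passed. The direction is that of the list, and the response of these genes to TGF-beta was not tested in these cells. Of 17 listed, without Smad7 and Skil, 14 were tested, 1 passed as higher and 2 as lower, with a median of -0.03. Over all genes tested, 1.32% passed as higher and 1.51% as lower. At an unadjusted p under 0.05 in edgeR, 5 of the 14 passed, where 16% of all genes tested did. These were the 3 called genes, Id3 and Id2 (log2 fold change -0.35, adjusted p 0.159 in edgeR). Itgae (ENSMUSG00000005947.11, plus strand of chromosome 11, 73090583 to 73147446), the CD103 gene, was at 10.5, 10.2, 8.25 and 10.1 CPM in Control and at 5.42, 5.34, 7.17, 5.03 and 6.39 CPM in DKO. It fell by 0.74 on the log2 scale (SE 0.14 and adjusted p 0.0219 in edgeR), with no overlap between the groups. Klf10 (ENSMUSG00000037465.10, minus strand of chromosome 15, 38291463 to 38300706), an early response gene of TGF-beta that also responds to other signals, went the other way. Its Control libraries held 81.6, 109, 126.1 and 112 CPM, and its DKO libraries 170.5, 151, 151, 162 and 192 CPM. All DKO libraries lay above all Control libraries, and Klf10 rose by 0.63 on the log2 scale (SE 0.12 and adjusted p 0.0238 in edgeR). For 8.71% of all genes tested the groups did not overlap. Ldlrad4, named above, was the other gene that fell. Id3 was at 7.26 ± 1.99 CPM in Control, against 11.2 ± 1.17 CPM in DKO (adjusted p 0.0963, edgeR, and 0.0211 without Control replicate 1).

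Among targets that TGF-beta is known to repress in T cells, 2 genes passed. All 11 were tested, 1 passed as higher and 1 as lower, with a median of -0.20, where 1.32% and 1.51% of all genes passed. At an unadjusted p under 0.05 in edgeR, 7 of the 11 passed, where 16% of all genes tested did. Besides Eomes, Fasl, Prf1 and Cx3cr1 they were Klrg1, Gzma and Tbx21. Their log2 fold changes were -0.29, -0.365 and 0.22, with adjusted p of 0.125, 0.179 and 0.253 in edgeR. Eomes, a transcription factor of effector and memory cells, fell from 72.0 ± 11.3 to 51.5 ± 5.12 CPM, or by -0.48 on the log2 scale (SE 0.12 and adjusted p 0.0497 in edgeR). The sum of its strand columns was 1.15 times the unstranded count. Fasl, the gene for a death ligand of cytotoxic cells, rose from 185 ± 7.72 to 229.5 ± 12.2 CPM (0.31, SE 0.07 and adjusted p 0.0406 in edgeR). Prf1, the perforin gene, was at 629.5 ± 93.7 and 477 ± 26.3 CPM (adjusted p 0.0516, edgeR, and 0.00691 without Control replicate 1). Cx3cr1, a chemokine receptor gene of terminal effector cells, was at 811 ± 174 and 621 ± 28.6 CPM (adjusted p 0.163, edgeR, and 6.68e-04 without Control replicate 1). Prf1 and Cx3cr1 were named after their values without that library were seen. Without any 1 library other than Control replicate 1, the largest adjusted p in edgeR was 0.142 for Eomes, 0.122 for Fasl, 0.113 for Ldlrad4, 0.0693 for Itgae and 0.0685 for Klf10, so none of these 5 calls held without each library, in contrast to Bmpr1a. All 5 passed without Control replicate 1, with an adjusted p in edgeR of 0.0076 for Eomes, 0.0127 for Fasl, 0.0294 for Ldlrad4, 0.0211 for Itgae and 0.00886 for Klf10. The summed cell cycle and myeloid lists given above did not overlap between the same groups, and their part in these 6 genes was not tested.

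**Figure D5:**
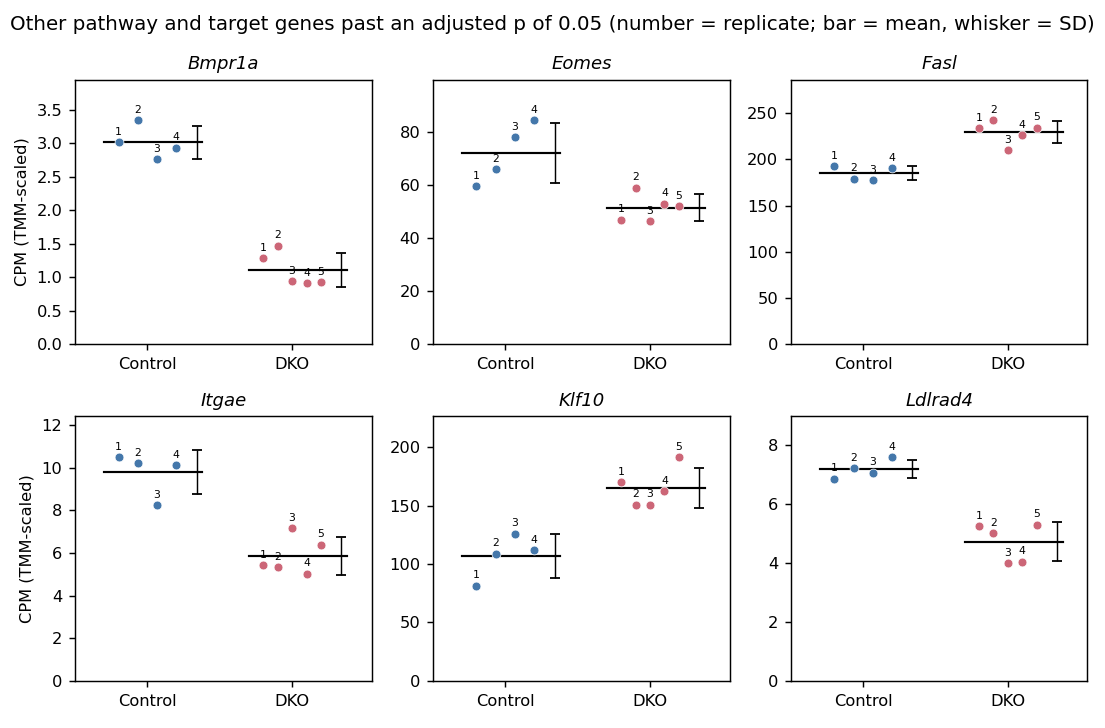
CPM by library (linear axis from 0) of the 6 other pathway and target genes past an adjusted p of 0.05 in edgeR. Points are libraries numbered by replicate, 4 Control in blue and 5 DKO in red; bars are means and whiskers SD. The groups do not overlap for any of the 6 genes, and Fasl and Klf10 are higher in DKO while Bmpr1a, Eomes, Itgae and Ldlrad4 are lower. The 6 genes were picked by a test on these same libraries, so the lack of overlap is no further support. The groups of 8.71% of all genes tested did not overlap.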

How the data were processed

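Messenger RNA of sorted OT-I cells was sequenced in 9 libraries (4 Control, 5 DKO, SMART-Seq v4 and Nextera Flex per the labels' protocols). Per the submitters' processing notes, Trim Galore 0.6.0 and STAR 2.7.8a were used with mm10. Which annotation and filters were used is not stated there. The authors deposited raw read counts per gene. The unstranded column was used, since the first strand held 49.9 to 50.1% of stranded counts. Unmapped, multimapping, no-feature and ambiguous reads (10.3 to 16.7%, 5.80 to 6.79%, 4.01 to 5.20% and 4.97 to 5.31%) were left out. GENCODE M21 matched 55230 of 55471 identifiers without their versions.

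edgeR 4.0.16 (filterByExpr, TMM, robust quasi-likelihood F-test) was fitted to all 14918 genes tested, with Benjamini-Hochberg adjustment over all of them and SE taken from the F statistic. The biological coefficient of variation was 20.9%. On simulated data edgeR recovered 57.5% of 200 changed genes among 14756, with 26.9% at a log2 change of 0.5, 66.7% at 1 and 85.5% at 1.5. Of the calls made there, 0% were false in edgeR, 18.1% in DESeq2 and 3.36% in limma-voom. The simulated counts varied independently between genes. No simulated library was made to stand apart as Control replicates 1 and 3 did, so these shares may not hold for the real libraries. No replicates were near-identical. DESeq2 1.42.0, limma 3.58.1 (voom with quality weights), sva 3.50.0, other filters and left-out libraries served as alternatives. Figures used matplotlib 3.10.9.

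The genes, lists and tests were chosen with earlier results of these data known. Named from the lists were all genes past the threshold, the largest fold change in each direction per list, and the 3 genes nearest to Tgfb1. Some genes with an unadjusted p under 0.05 in edgeR were named as well. The Sp1 and AP-1 words were added later.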

Additional observations from a re-analysis of the deposited data

Results flagged for a closer look

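Of 54 groups of 4 or 5 libraries of the named genes, 5 held a library whose gap to the others was large against the range of its group (Dixon's test). In independent groups chance alone gives this in about 5% of the groups. The 54 groups share the same 9 libraries and are not independent, so the count of 5 cannot be judged against that share. Tgfb1 was at 80.7 CPM in Control replicate 1 and at 96.2 to 97.3 CPM in the other Control libraries. Smad3 was at 64.2 CPM in Control replicate 1, against 128 to 137 CPM. Runx3 was at 114 CPM in Control replicate 1, against 216 to 223 CPM. Skil was at 42.4 CPM in DKO replicate 2, against 28.1 to 32.2 CPM in the other DKO libraries. Itgae was at 8.25 CPM in Control replicate 3, against 10.1 to 10.5 CPM. Of the 5, 3 fall in Control replicate 1, the library that stood apart on the first principal component.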

How the results depend on the processing

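Against 422 genes called by edgeR, 1059 were called by DESeq2, 996 by limma-voom, 1148 with 1 surrogate variable and 179 to 749 without 1 library. The count of the 10 genes called fell from 1 to 0 with no low-count filter, and was 0 to 1 without 1 library. The replicate numbers did not pair the libraries (same-number correlations -0.0469, -0.0092, 0.0124 and -0.117), and with the replicate number as a block, over 8 libraries, 63 genes and 0 of the 10 were called, with Tgfbr3 at 0.0085, Skil at 0.026 and Pard6a at -0.0078. Log2 fold changes that changed sign were, in limma-voom, Ski 0.16, Acvr1 -0.065 and Ltbp1 0.12, and, with 1 surrogate variable, Ski 0.23. Without Control replicate 1 they were Smad4 -0.024, Ski 0.31 and Acvr1 -0.088. Without Control replicate 3 they were Tgfbr2 0.017, Skil 0.11, Ltbp1 0.51 and Pard6a -0.084. Without Control replicate 4 Skil was at 0.01. Without Control replicates 1 and 3 together, an alternative chosen after seeing the data, they were Ski 0.10, Acvr1 -0.25 and Ltbp1 0.45. Pard6a was at -0.017 with a filter of 1 CPM in 4 libraries, at -0.009 with strand columns summed, and at -0.03, -0.03 and -0.02 without Control replicate 2, DKO replicate 4 and DKO replicate 5. Without 1 library the ranges were -0.29 to 0.017 for Tgfbr2, -0.024 to 0.12 for Smad4, -0.37 to 0.31 for Ski, -0.30 to 0.11 for Skil, -0.088 to 0.61 for Acvr1, -0.57 to 0.51 for Ltbp1 and -0.084 to 0.11 for Pard6a. Tgfb1, Tgfbr1, Smad2, Smad3 and Smad7 kept their direction in all 18 alternatives, and the call of Tgfb1 held in 8 of them. The cause was not tested. The lowest count of the 10 genes was 105, that of Tgfbr3 in Control replicate 1, while the lowest counts of Acvr1 and Ltbp1 were 4 and 14.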
